A study of Homo sapiens with 18 samples.

Results

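RNA levels of 35 genes for heterogeneous nuclear ribonucleoproteins (hnRNPs) and related nuclear RNA-binding proteins were followed in poly-A RNA from 18 libraries of 2 human sarcoma lines, ES8 (Ewing sarcoma) and Rh30 (alveolar rhabdomyosarcoma). The 35 genes were taken by symbol from a fixed list, out of 57500 genes in the count files. They correspond to 36 gene entries, since *MATR3* has 2 overlapping identifiers, and counts of members below are over these 36 entries. All 36 passed the filter on low counts in every comparison. Each line carried dCas9-KRAB, the repressor of CRISPR interference (CRISPRi), and gave 3 groups of 3 libraries after 72 hours in puromycin. Parental cells received a control guide (sgCTL) or a guide that silences *DNAJC17* (sgDNAJC17), which encodes a J-domain co-chaperone with an RNA recognition motif (RRM). The third group received sgDNAJC17 in cells that stably expressed 3xFLAG-DNAJC17 without its RRM from a lentiviral EF1 promoter (ΔRRM). No ΔRRM library with sgCTL was analysed, so the transgene and the knockdown cannot be told apart in that group. Each tumour type was represented by 1 line, and the replicates, lettered A to C, were plated cultures, so p-values measure the spread between such cultures and may reflect technical spread only.

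hnRNPs coat nascent transcripts, and their RRM or KH domains choose between splice sites, mask cryptic exons and carry mRNA to the cytoplasm. Several of them bind their own pre-mRNA and set their own level through exons that send the transcript to decay. The family grew by duplication, so most members have 1 or more close relatives (*HNRNPH1* and *HNRNPH2*, *PCBP1* and *PCBP2*, *PTBP1* to *PTBP3*), and some copies arose by retrotransposition and lack introns. The counts are per gene, so they hold the summed RNA of a gene and not its splice forms.

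Library totals ran from 35342393 to 48245989 counts. *DNAJC17* itself (ENSG00000104129, chr15:40765155-40807478, - strand, GRCh38) was at 11.2, 12.4 and 12.3 CPM (read counts divided by library totals that TMM factors adjusted for composition) in the ES8 sgCTL libraries and 1.56, 1.96 and 1.56 in sgDNAJC17 (log2 fold change -2.84). In Rh30 it was at 11.7, 11.9 and 10.8 with sgCTL and 2.52, 2.20 and 2.72 with sgDNAJC17 (log2 fold change -2.19). In ΔRRM cells, where the transgene is counted too, it reached 283 to 312 CPM in ES8 and 336 to 368 in Rh30. Of 7 muscle markers of Rh30, *MYOD1* was at 967 to 1030 CPM in Rh30 sgCTL, 861 to 949 in sgDNAJC17 and 637 to 712 in ΔRRM. It was at most 1.75 in ES8. *FGFR4*, the highest of the 7 in ES8, was at 90.9 to 93.7 CPM in ES8 sgCTL against 502 to 540 in Rh30 sgCTL. Of 6 ES8 markers, *NR0B1* was at 49.4 to 72.5 CPM in ES8 and at most 0.0341 in Rh30. In each Rh30 group 2 of the 6 had over 3 counts in a library, *CD99* and *CCND1*. *CD99* was at 312 to 325 CPM in ES8 sgCTL and 329 to 358 in Rh30 sgCTL, and *CCND1* at 852 to 897 and 256 to 283. A list of 17 epithelial genes summed to 267 to 288 CPM in Rh30 sgCTL, 289 to 313 in sgDNAJC17 and 338 to 369 in ΔRRM, against 291 to 352 over the ES8 libraries. In Rh30 sgCTL 10 of the 17 had over 3 counts in a library, with *CLDN7* and *RAB25* at 0 in all. The numbers were 17 in Rh30 sgDNAJC17 and 16 in Rh30 ΔRRM, and 15, 12 and 14 in the same groups of ES8. The part of this list in the results was not tested. Traces of Rh30 muscle markers (*MYOG* up to 0.13 CPM, *CHRNA1* up to 0.54) were counted in ES8 ΔRRM libraries and at 0 in the other ES8 groups.

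The 36 entries together took 1.64 to 1.67% of all counts in ES8 sgCTL libraries and 1.19 to 1.23% in Rh30 sgCTL. Per length of exon, as CPM per kilobase (RPKM), the most abundant in ES8 was *HNRNPAB*, an A/B-type protein that binds single-stranded nucleic acids, at 363 ± 2.03 (SD, n = 3). *HNRNPA1*, the best known splicing repressor of the family, followed at 290.0 ± 2.34, then *PCBP1*, which binds C-rich RNA, at 174 ± 1.15 and *HNRNPK*, its KH-domain relative, at 172 ± 5.63. The last pair did not differ beyond their SDs. In Rh30 the order was *PCBP1* (307 ± 7.65), *HNRNPA1* (259.8 ± 2.74), *HNRNPK* (209.8 ± 6.82) and *HNRNPC* (166 ± 11.5), and these 4 differed by more than their SDs. *HNRNPAB* came next there at 126 ± 2.86. The median member was at 48.9 RPKM in ES8 and 43.95 in Rh30. At the low end of both lines stood *RBM5*, *PTBP2* and both *MATR3* entries. The *MATR3* values are too low to compare with other genes, since 5108 exonic bases are shared by the 2 identifiers (43.4% of one, 76.9% of the other), and a read in them can be assigned to neither. *PCBP1* shares 52.2% of its exonic bases with an antisense gene, *PCBP1-AS1*, so its level and rank may be understated as well. *HNRNPA1* has 74 pseudogenes named after it, whose counts came to 0.256% of its own. How reads that match several places were counted is not given in the sources used here.

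**Figure D1:**
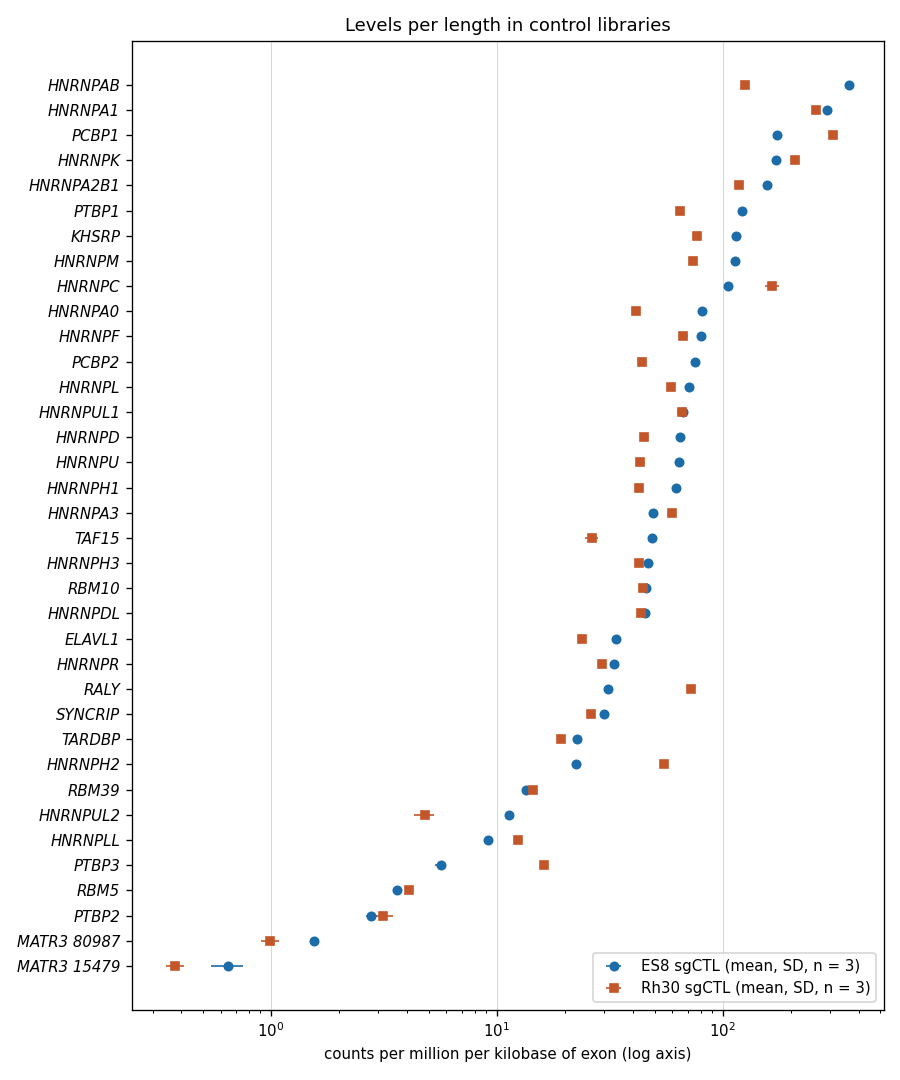
Level of each member in sgCTL libraries of ES8 (blue circles) and Rh30 (orange squares), in RPKM on a log axis; points are means and bars SDs of 3 libraries. *HNRNPAB* led in ES8 at 363 and *PCBP1* in Rh30 at 307, while both *MATR3* entries (named by the last digits of their identifiers) were lowest.

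The first question was how the parental lines differ. Of the 36 entries, 10 were higher in Rh30 than in ES8 and 22 lower at an adjusted p under 0.05 (quasi-likelihood test of edgeR, adjusted by Benjamini-Hochberg over all genes tested, as for all calls below), with a median log2 fold change of -0.23. Among all genes 87.5% were called (42.0% higher, 45.5% lower), so the members' share is near the background. Scaling to the library totals instead of by TMM, edgeR's trimmed mean of log ratios, lowered the median of all genes by 0.21 on the log2 scale in this comparison and gave 6 higher and 26 lower, with *PTBP2* and *RBM5* turning from higher to not called and below 0. A total of 6 members differed by at least 2-fold, against 50.9% of all genes. *PTBP3*, a paralogue of the polypyrimidine tract-binding repressor *PTBP1*, was at 48.9, 43.5 and 47.2 CPM in ES8 and 134, 134 and 134 in Rh30 (log2 fold change 1.497, SE 0.051, adjusted p = 4.34e-28). *PTBP1* itself went the other way, with 836 ± 9.36 CPM in ES8 and 447 ± 19.4 in Rh30 (log2 fold change -0.93). *HNRNPH2*, an X-linked F/H-type protein that binds G-runs, had 51.6, 48.1 and 49.7 CPM in ES8 and 123, 122 and 123 in Rh30 (log2 fold change 1.28), whereas its paralogue *HNRNPH1* was lower in Rh30 (log2 fold change -0.57). *RALY*, an hnRNP C relative, was at 230.0, 247 and 228 CPM in ES8 and 531, 560.2 and 549 in Rh30 (log2 fold change 1.19). Lower in Rh30 by 2-fold or more were *HNRNPAB* (774, 779 and 782 against 274, 274 and 263 CPM), *HNRNPUL2*, a U-type relative of the nuclear scaffold protein hnRNP U (60.9, 59.1 and 60.9 against 28.3, 23.8 and 24.2), and *HNRNPA0*, an A/B-type binder of AU-rich mRNA (727, 704 and 702 against 366, 367 and 349.6), with log2 fold changes of -1.55, -1.27 and -1.005. None of these groups of 3 libraries overlapped.

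After knockdown of *DNAJC17* more members were called up than down in both lines, and 19 of 36 in ES8 and 20 of 36 in Rh30 were not called. In ES8, 12 of the 36 rose and 5 fell, with a median log2 fold change of 0.13, against 13.6% up and 13.8% down (27.4% called) and a median of -0.016 over 17143 genes. Among genes with a mean of at least 10 CPM, a background chosen after the data were seen, 35.9% were called (17.3% up, 18.6% down). In Rh30, 13 rose and 3 fell, with a median of 0.11, against 16.1% up and 16.2% down (32.3% called) and a median of 0.0045 over 15391 genes. Of genes above 10 CPM, 42.8% were called there (21.5% up, 21.4% down). No member changed by 2-fold in either line, as 1.95% of all genes did in ES8 and 1.55% in Rh30. With library-size scaling the split was 8 up and 6 down in each line. With the replicate letter as a block, the Rh30 counts were 18 up and 10 down, with all members of the main counts among them. The labels do not say that a letter marks a shared batch, and this pairing was read from the data. Rh30 values given without mention of the block come from fits without it. The share of all genes called was not taken for alternative fits, here and below, so their counts have no background beside them. In bulk RNA a shift in the makeup of a culture and a change of RNA per cell cannot be told apart.

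**Figure D2:**
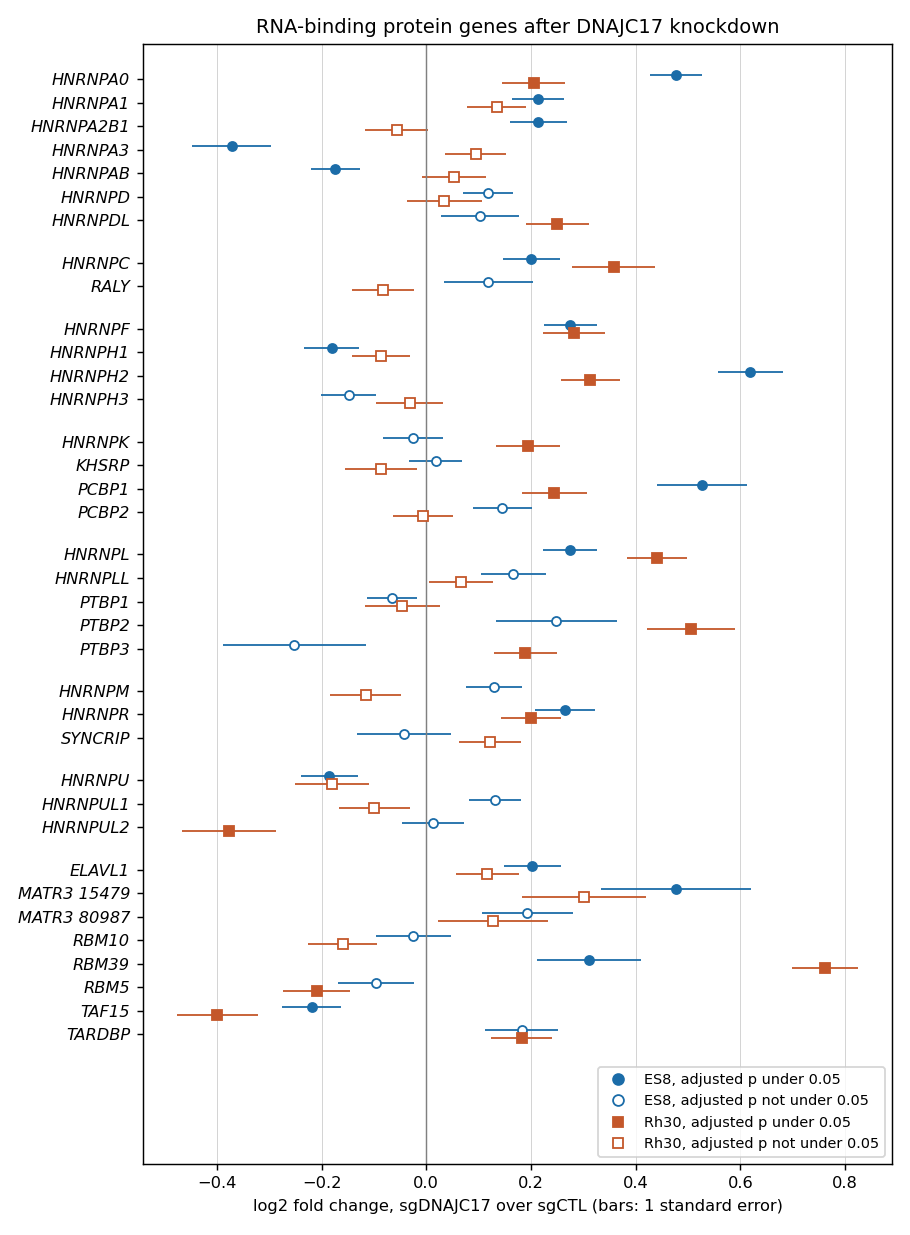
Log2 fold change of each member in sgDNAJC17 over sgCTL cells, grouped by role from A/B type (top) to the other RNA-binding proteins (bottom), for ES8 (blue circles) and Rh30 (orange squares); bars are 1 standard error, and filled symbols have an adjusted p under 0.05 (edgeR, 3 libraries against 3). Values stayed between -0.40 and 0.76, and *HNRNPH2* in ES8 and *RBM39* in Rh30 lay farthest to the right.

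A total of 8 members rose in both lines, *HNRNPA0*, *HNRNPC*, *HNRNPF*, *HNRNPH2*, *HNRNPL*, *HNRNPR*, *PCBP1* and *RBM39*, which was 66.7% of those that rose in ES8 and 61.5% of those that rose in Rh30. *TAF15* alone fell in both, and no member was called in opposite directions. Over the 13841 genes tested in both lines, 6.17% rose in both and 6.18% fell in both. The 854 shared rises were 40.8% of the rises in ES8 and 36.7% of those in Rh30. Shared shares were not taken for genes with a mean of at least 10 CPM, where calls in each line were more frequent. With library-size scaling 4 members rose in both (*HNRNPF*, *HNRNPH2*, *HNRNPL* and *PCBP1*) and 3 fell (*HNRNPH1*, *HNRNPU* and *TAF15*).

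The upstream windows of these shared members are shown because they moved together. RefSeq promoter windows (GRCh38.p14) were found for 31 of the 35 members and not for *ELAVL1*, *HNRNPA1*, *RBM39* and *TAF15*. The CCAAT letters, on either strand, stood within 250 bases before a start site in 6 of the 7 shared members with a window, in 14 of the other 24 members and in 37% of 27305 genes. The GC-box letters GGGCGG stood in 6 of 7, 21 of 24 and 46.2%, CCGGAAG in 2 of 7, 3 of 24 and 10.2%, and TATAAA in 1 of 7, 2 of 24 and 13% of genes. None of these motifs contains another. The match nearest to a start site is given for each of the 6, read along the gene's strand, with the motif or its reverse complement in capitals.
HNRNPA0, chr5:137754424-137754450, - strand: gcgaggcggggATTGGctggtagccct
HNRNPC, chr14:21269481-21269507, - strand: aaaacgcacagCCAATaggaagattct
HNRNPF, chr10:43397320-43397346, - strand: acgcgtttcccATTGGtgacatcttgg
HNRNPH2, chrX:101408070-101408096, + strand: cgttccgctaaCCAATcaccctcttcc
HNRNPL, chr19:38849988-38850014, - strand: gtgtccctcccCCAATgagaggcgggg
HNRNPR, chr1:23344457-23344483, - strand: cagcttcatcgATTGGctctcgagtcg
A match describes letters in the window and is not evidence that a factor binds there.

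Among the largest rises in ES8 were those of the 3 members with 1 or 2 exon blocks (stretches of exon merged over a gene's transcripts). *HNRNPH2* (ENSG00000126945, chrX:101408295-101414133, + strand) was at 51.6, 48.1 and 49.7 CPM with sgCTL and 74.3, 77.1 and 81.7 with sgDNAJC17 (log2 fold change 0.62, SE 0.063, adjusted p = 0.000279). *PCBP1* (ENSG00000169564, chr2:70087454-70089203, + strand) went from 304, 306 and 302 to 516, 413 and 406 (log2 fold change 0.53, SE 0.086, adjusted p = 0.00218), and replicate A of the knockdown was the highest library. *HNRNPA0* (ENSG00000177733, chr5:137745651-137754376, - strand) went from 727, 704 and 702 to 1045, 992 and 981 (log2 fold change 0.48, SE 0.050, adjusted p = 0.000313). None of these groups overlapped, and each of the 3 calls held without any single ES8 library. In Rh30 the same 3 genes rose as well, *HNRNPH2* from 123, 122 and 123 to 152, 152 and 149 (log2 fold change 0.31, SE 0.056, adjusted p = 0.00108), *PCBP1* from 538, 524 and 551 to 672, 637 and 583 (log2 fold change 0.24, SE 0.062, adjusted p = 0.0085) and *HNRNPA0* from 366, 367 and 349.6 to 432, 419.5 and 384 (log2 fold change 0.20, SE 0.061, adjusted p = 0.0192). The Rh30 groups did not overlap either. The Rh30 call was lost for *PCBP1* without sgCTL replicate B (log2 fold change 0.23) and for *HNRNPA0* without sgCTL replicate B or C or sgDNAJC17 replicate B (0.22, 0.18 and 0.19), and a correction for GC content and length took that of *HNRNPH2* to 0.11, not called.

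The split by exon blocks was made after the values had been seen and is given as a description. Among protein-coding genes with a mean of at least 10 CPM, 41.8% of 435 genes with 1 or 2 blocks rose in ES8 (median log2 fold change 0.19), against 16.0% of 8944 genes with 3 or more (median -0.025). In Rh30 the shares were 33.8% of 414 (median 0.12) and 20.8% of 8788 (median -0.0041). The remaining 33 member entries, with 6 to 25 blocks, had medians of 0.12 in ES8 and 0.066 in Rh30.

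**Figure D3:**
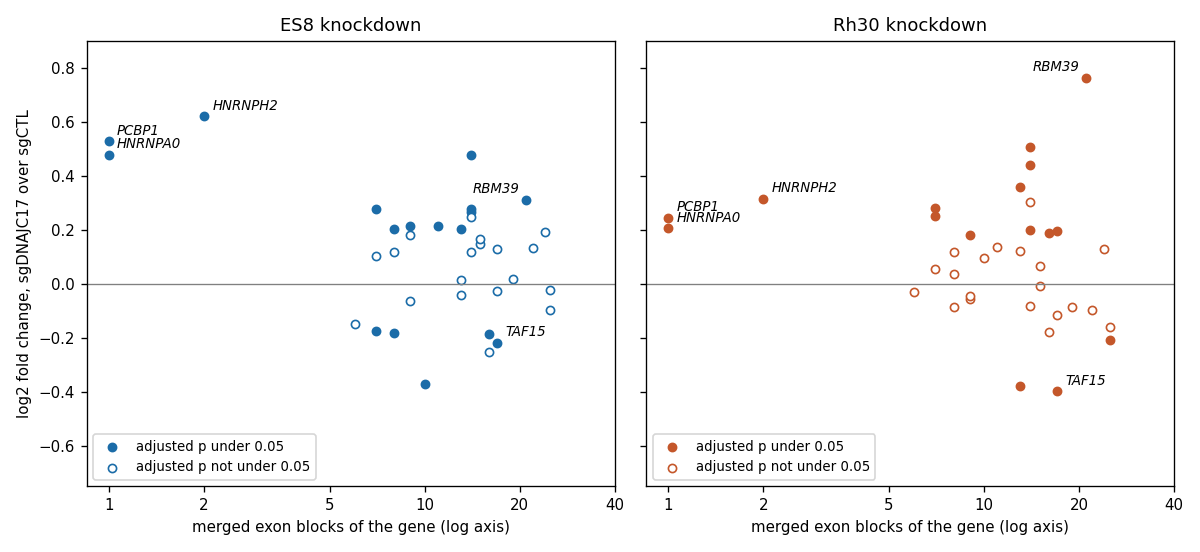
Log2 fold change of each member in sgDNAJC17 over sgCTL cells against the number of its merged exon blocks (log axis), in ES8 (left) and Rh30 (right); filled points have an adjusted p under 0.05 (edgeR). The 3 members with 1 or 2 blocks lie at 0.48 to 0.62 in ES8 and at 0.20 to 0.31 in Rh30, and *RBM39*, with 21 blocks, is the highest in Rh30 at 0.76.

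Neighbouring annotations touch these genes. The read-through gene *RPL36A-HNRNPH2* shares 16.3% of the exonic bases of *HNRNPH2* and had 9, 6 and 6 counts in ES8 sgCTL, 30, 29 and 33 in sgDNAJC17 and 5, 5 and 3 in ΔRRM (log2 fold change 2.39, SE 0.31, adjusted p = 0.000813 for the knockdown). In Rh30, where it failed the filter in the knockdown comparison, it had 2, 1 and 4, then 8, 10 and 18, then 1, 4 and 0 counts. These counts are small beside those of *HNRNPH2*, and reads in the shared bases can be assigned to neither gene. The antisense gene *PCBP1-AS1* shares 52.2% of the exonic bases of *PCBP1* and was not called in either knockdown (log2 fold change -0.16 in ES8 and 0.18 in Rh30). Without strand the reads of the pair cannot be told apart.

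The other shared rises were in genes with more exon blocks, from 7 in *HNRNPF* to 21 in *RBM39*. *RBM39*, a U2AF-related splicing factor (ENSG00000131051, chr20:35703609-35742312, - strand), stood at 140.3, 134 and 137 CPM in Rh30 sgCTL and 218, 229 and 242 in sgDNAJC17, the largest change of any member (log2 fold change 0.76, SE 0.063, adjusted p = 3.48e-06). In ES8 it went from 128, 122 and 131 to 131, 171 and 178 (log2 fold change 0.31, SE 0.10, adjusted p = 0.0428), and knockdown replicate A lay just above the highest control library. *HNRNPL*, which binds CA repeats, went from 491, 479.6 and 478 to 621, 584 and 576 in ES8 (log2 fold change 0.28, SE 0.052) and from 391, 413 and 401 to 539, 546 and 533 in Rh30 (0.44, SE 0.057). *HNRNPC*, which binds U-tracts and keeps cryptic exons out (ENSG00000092199, chr14:21209136-21269494, - strand), went from 798, 749.9 and 779 to 858, 947 and 913 in ES8 (log2 fold change 0.20, SE 0.054, adjusted p = 0.0215) and from 1118, 1262 and 1264 to 1375, 1576 and 1665 in Rh30 (log2 fold change 0.36, SE 0.079, adjusted p = 0.00405). For *HNRNPL* and *HNRNPC* the control and knockdown libraries did not overlap in either line.

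*HNRNPF*, a binder of G-runs, went from 263, 264 and 258 CPM to 333, 314 and 319 in ES8 (log2 fold change 0.27) and from 212, 215 and 229 to 257, 267 and 264 in Rh30 (0.28). *HNRNPR*, a relative of SYNCRIP that associates with neuronal mRNAs, went from 285, 282 and 293 to 326, 361 and 362 in ES8 (0.26) and from 263, 250.3 and 247 to 291, 282 and 291 in Rh30 (0.20). Both genes had every knockdown library above every control library. *TAF15*, a FET-family protein linked to RNA polymerase II (ENSG00000270647, chr17:35713791-35864615, + strand), fell from 286, 287 and 289 to 263, 252 and 237 in ES8 (log2 fold change -0.22, SE 0.056, adjusted p = 0.0164) and from 167, 150.3 and 149 to 131, 115 and 105 in Rh30 (log2 fold change -0.40, SE 0.077, adjusted p = 0.00178), again without overlap.

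**Figure D4:**
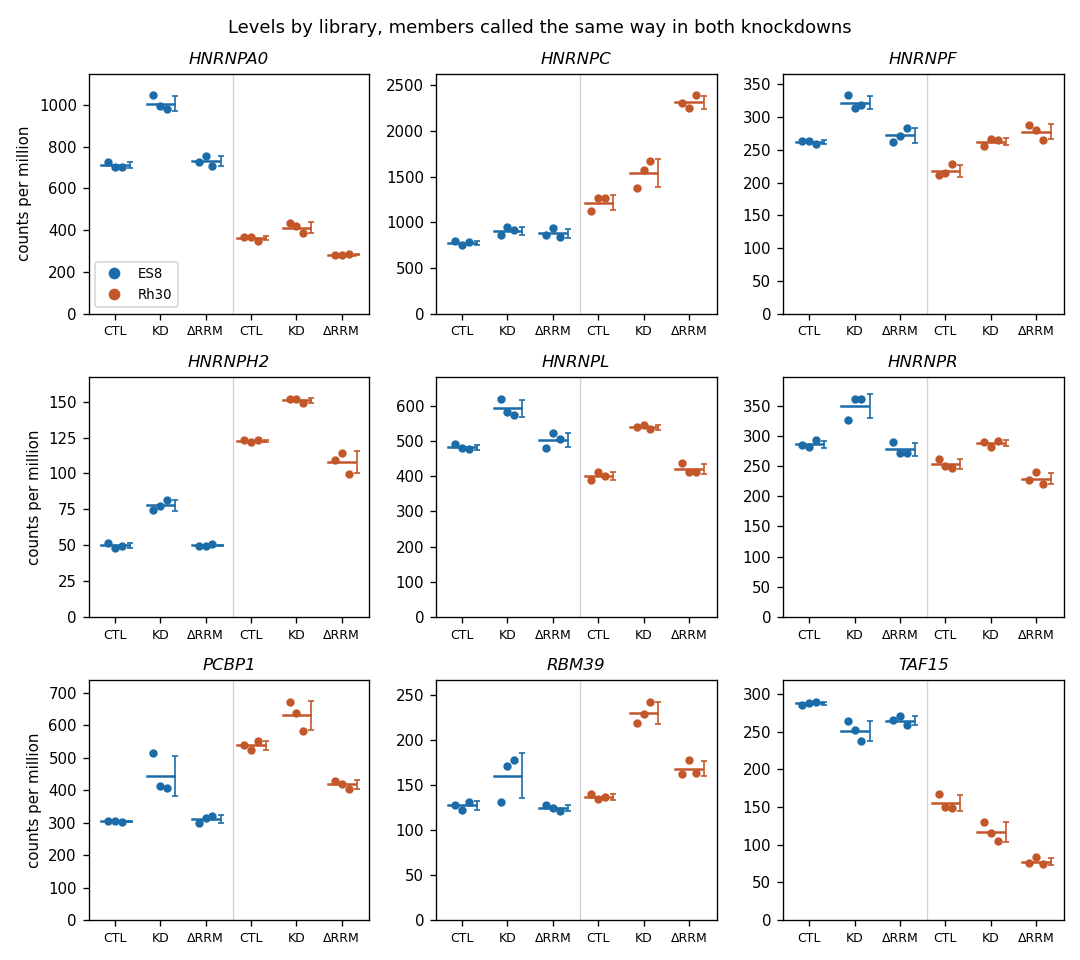
CPM in every library for the 8 members that rose and the 1 that fell (*TAF15*) in both knockdowns; CTL is sgCTL, KD is sgDNAJC17, ΔRRM is ΔRRM with sgDNAJC17, ES8 is blue and Rh30 orange. Points are libraries A, B and C, lines are means and the bars beside them SDs (n = 3). *HNRNPH2*, *PCBP1* and *HNRNPA0* in ES8 stand above their controls in the knockdown and near them in ΔRRM, while *HNRNPC* in Rh30 is highest in ΔRRM.

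Single libraries decided several of these calls. In ES8, leaving out sgCTL replicate A, B or C gave 6 up and 1 down in each case, leaving out knockdown replicate A gave 20 and 8, replicate B 8 and 3, and replicate C 8 and 2. The ES8 calls of *HNRNPC* and *RBM39* were lost without any one ES8 library other than knockdown replicate A, and that of *TAF15* without any one sgCTL library or knockdown replicate C. In Rh30, leaving out sgCTL replicate A, B or C gave 10 up and 2 down, 7 and 2, and 8 and 3, and leaving out knockdown replicate A, B or C gave 14 and 7, 9 and 2, and 11 and 2. The Rh30 call of *HNRNPR* was lost without sgCTL replicate B or C or knockdown replicate B. Directions held in these fits for all 9 shared members. The number called in both lines ran from 5 to 11 up and 0 to 2 down.

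By role, 3 of the 7 A/B-type members rose in ES8 (*HNRNPA0*, *HNRNPA1* and *HNRNPA2B1*) and 2 fell (*HNRNPA3* and *HNRNPAB*), while in Rh30 2 rose (*HNRNPA0* and *HNRNPDL*). Of the 4 F/H-type genes, *HNRNPF* and *HNRNPH2* rose in both lines. *HNRNPH1* fell in ES8, from 589, 578 and 599 to 501, 548 and 534 CPM (log2 fold change -0.18, SE 0.052, adjusted p = 0.0281), while its paralogue *HNRNPH2* rose. The call of *HNRNPH1* was lost with DESeq2, the GC and length correction, all 18 libraries in 1 fit or the replicate block, and without any one sgCTL library or knockdown replicate C. Of the 5 L and PTB-type genes, *HNRNPL* rose in both lines and *PTBP2* and *PTBP3* in Rh30 as well. *PTBP2*, the neural relative of *PTBP1*, went from 36.7, 41.1 and 44.7 to 52.2, 58.7 and 61.3 in Rh30 (log2 fold change 0.51, SE 0.084, adjusted p = 0.000714), and *PTBP1* was not called in either line (log2 fold change -0.066 and -0.046).

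None of the 3 U-type genes was called up in either knockdown in the main edgeR fits. *HNRNPUL1* was at 439, 433 and 441 CPM in ES8 sgCTL and 504, 476 and 481 in sgDNAJC17, without overlap, but was not called (log2 fold change 0.13, SE 0.049, adjusted p = 0.0739; unadjusted p = 0.0239), and it was called up with the GC and length correction and without knockdown replicate A. *HNRNPU*, the scaffold attachment factor, went from 868, 868 and 885 to 732, 794 and 817 CPM in ES8 (log2 fold change -0.19, SE 0.054, adjusted p = 0.0301), a value that turned to 0.034 with a correction for GC content and length. The ES8 call was also lost with DESeq2, with all 18 libraries in 1 fit, with the replicate block, and without any one sgCTL library or knockdown replicate B. In Rh30 its log2 fold change was -0.18, not called, but called with the block, with library-size scaling, with no filter on low counts and without knockdown replicate A. *COX20* shares 25.8% of the exonic bases of *HNRNPU* on the opposite strand and rose in Rh30 (log2 fold change 0.43). *HNRNPUL2* fell in Rh30, from 28.3, 23.8 and 24.2 to 21.7, 18.03 and 18.3 (log2 fold change -0.38, SE 0.090, adjusted p = 0.00616), and had 60.9, 59.1 and 60.9 with sgCTL and 59.3, 62.2 and 63.8 with sgDNAJC17 in ES8 (log2 fold change 0.013, SE 0.059, adjusted p = 0.901). Its read-through partner *HNRNPUL2-BSCL2*, which shares 44.5% of its exonic bases, fell in Rh30 too (log2 fold change -0.53, SE 0.14, adjusted p = 0.00991). In ES8 the partner was not called (log2 fold change 0.48, SE 0.16, adjusted p = 0.0513). It was at 9.68, 10.6 and 10.6 CPM there with sgCTL and 19.2, 12.5 and 12.1 with sgDNAJC17. These groups did not overlap, and knockdown replicate A was the highest library. The partner's difference between the lines, Rh30 minus ES8, was called (-0.99, SE 0.23, adjusted p = 0.00989).

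Among the other RNA-binding proteins, *ELAVL1* (HuR), which stabilises AU-rich mRNA, rose in ES8, from 232, 233 and 242 to 287, 262 and 277 CPM (log2 fold change 0.20), a call lost without any one sgCTL library or knockdown replicate C. The *MATR3* entry ENSG00000015479 went from 8.52, 6.24 and 8.20 to 9.01, 12.2 and 11.3 (log2 fold change 0.48, SE 0.14, adjusted p = 0.033), and the call was lost without any one of the sgCTL libraries or without knockdown replicate B or C, with log2 fold changes of 0.35 to 0.56. *TARDBP* (TDP-43) rose in Rh30 (log2 fold change 0.18) and had almost the same value in ES8 (0.18, not called). Its Rh30 call was lost with library-size scaling, no filter, all 18 libraries in 1 fit or the GC and length correction, and without any one sgCTL library or knockdown replicate B. *RBM5*, a regulator of apoptotic splice choices, fell in Rh30 from 42.7, 44.2 and 41.0 to 37.3, 36.9 and 35.3 (log2 fold change -0.21, SE 0.064, adjusted p = 0.0224). That call was lost with the GC and length correction and without sgCTL replicate A or B or knockdown replicate B or C.

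Not called in either knockdown were 12 entries, *HNRNPD*, *RALY*, *HNRNPH3*, *PCBP2*, *KHSRP*, *HNRNPLL*, *PTBP1*, *HNRNPM*, *SYNCRIP*, *HNRNPUL1*, *RBM10* and the *MATR3* entry ENSG00000280987. Their log2 fold changes ran from -0.15 (*HNRNPH3*) to 0.19 (*MATR3*) in ES8 and from -0.16 (*RBM10*) to 0.13 (*MATR3*) in Rh30. With the block, 6 of these 12 were called in Rh30, *SYNCRIP* up and *RALY*, *KHSRP*, *HNRNPM*, *HNRNPUL1* and *RBM10* down.

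For scale, the serine/arginine-rich (SR) proteins often act against hnRNPs in splice site choice. Their genes had 5 of 14 tested up in ES8 and 11 of 13 in Rh30. No SR gene was called down in the main edgeR fits (0 and 1 had a negative value with an unadjusted p under 0.05). The largest were *TRA2A* in ES8 (log2 fold change 0.54) and *SRSF11* in Rh30 (0.57). A list of 39 other RNA-binding regulators had 1 of 35 up (*RBM4*, 0.43) and 2 down in ES8, with *MSI2* lowest (-0.23), and 3 of 33 up and 4 down in Rh30, led by *TIAL1* (0.51) and *NOVA1* (-0.54). The medians were 0.17 and 0.26 for the SR proteins and -0.031 and -0.033 for the other regulators. Both lists were chosen with results of these data known.

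The next question was whether the knockdown effect differed between the lines, tested as an interaction over the 12 parental libraries. A total of 5 members were called, 3 with a higher and 2 with a lower effect in Rh30, against 9.78% of all genes (5.23% higher, 4.55% lower). *HNRNPA3*, an A/B-type protein close to hnRNP A2, went from 302, 284 and 303 to 204, 249 and 244 CPM in ES8 and from 373, 359.8 and 349 to 399, 374 and 370.1 in Rh30 (difference of log2 fold changes 0.49, SE 0.10, adjusted p = 0.00335). It fell in ES8 (log2 fold change -0.37), where the groups did not overlap, and had 0.094 in Rh30, called only with the block among the settings run. *RBM39* rose more in Rh30 (difference 0.48, SE 0.12, adjusted p = 0.013). *PTBP3* had 48.9, 43.5 and 47.2 CPM with sgCTL against 29.8, 45.6 and 43.7 with sgDNAJC17 in ES8, and 134, 134 and 134 against 157, 141 and 155 in Rh30 (difference 0.47, SE 0.14, adjusted p = 0.036), and its low ES8 value came from knockdown replicate A, while the other libraries overlapped the controls. Without that library the ES8 log2 fold change of *PTBP3* was -0.087 and the difference 0.32, still called.

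The 2 lower effects were *HNRNPH2* (difference -0.28, SE 0.088, adjusted p = 0.0482), which rose in both lines, and *HNRNPUL2* (difference -0.36, SE 0.11, adjusted p = 0.046). They lie near the threshold, since neither was called without any one of the ES8 sgCTL libraries, of sgCTL replicates B and C of Rh30, or of knockdown replicates B and C of either line. The call of *HNRNPA3* held without any single library, that of *RBM39* was lost without Rh30 sgCTL replicate A, and that of *PTBP3* was lost without ES8 sgCTL replicate A or C, any one Rh30 sgCTL library or Rh30 knockdown replicate C. Calls of higher effects ran from 1, without Rh30 sgCTL replicate A, to 5, without ES8 knockdown replicate A, which also gave 3 lower. With library-size scaling the split was 2 higher and 4 lower.

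In ES8, ΔRRM cells with sgDNAJC17 had members near the control. None of the 36 was called against sgCTL by edgeR (3 had an unadjusted p under 0.05, and DESeq2 called 0), with log2 fold changes between -0.19 and 0.17 and a median of -0.015, and 0.174% of all genes were called. *HNRNPH2* was at 49.3, 49.7 and 50.5 CPM in ΔRRM (log2 fold change against sgCTL -0.006, SE 0.063), *PCBP1* at 298, 315 and 321 (0.028, SE 0.057) and *HNRNPA0* at 726, 756 and 709 (0.032, SE 0.053). All 3 genes overlapped their control libraries. *HNRNPC* was at 857, 936 and 841, above all controls and overlapping the knockdown, but not called (0.17, adjusted p = 0.286).

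Against the ES8 knockdown, 5 members were lower in ΔRRM and 0 higher in the main edgeR fit. Over all genes 7.35% were higher and 7.36% lower (14.7% called). Of the members not called, 2 had a positive value with an unadjusted p under 0.05, and DESeq2 called 1 higher. None of the 5 lower members reached 2-fold (1.97% of all genes). They were *HNRNPH2* (log2 fold change -0.62, SE 0.086, adjusted p = 0.00138), *PCBP1* (log2 fold change -0.49, SE 0.10, adjusted p = 0.00827), *HNRNPA0* (log2 fold change -0.44, SE 0.078, adjusted p = 0.00433), *MATR3* ENSG00000015479, at 8.42, 6.37 and 6.29 CPM (log2 fold change -0.60, SE 0.15, adjusted p = 0.0206), and *HNRNPR*, at 289.8, 271 and 272 (log2 fold change -0.31, SE 0.083, adjusted p = 0.0268). All 5 had risen in the knockdown, and both comparisons share the knockdown libraries, so the values are not independent. Leaving out knockdown replicate A gave 10 lower members, and leaving out knockdown replicate B or C or ΔRRM replicate C gave 3, the calls of *MATR3* and *HNRNPR* being lost. That of *MATR3* was lost without ΔRRM replicate B too, and that of *HNRNPR* without ΔRRM replicate A and with the replicate block. The read-through *RPL36A-HNRNPH2* was lower as well (log2 fold change -2.96).

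Rh30 ΔRRM cells were far from their control. Against sgCTL, 7 members were higher and 23 lower, with a median log2 fold change of -0.27, beside 68.8% of all genes called (33.8% up, 35.0% down), or 82.3% of those above 10 CPM. The members' share of all counts was 0.962 to 1.03% in ΔRRM against 1.19 to 1.23% in sgCTL. Library-size scaling shifted the median of all genes by -0.24 here and gave 5 higher and 27 lower members, with *RALY* at -0.0096 in place of 0.23. TMM factors were 0.819 to 0.853 in the Rh30 ΔRRM libraries and 0.917 to 0.974 in the other Rh30 libraries. No member reached 2-fold, as 9.97% of all genes did. The sum of the 7 muscle markers differed between the groups too, at 3327 to 3445 CPM in Rh30 sgCTL, 2763 to 3031 in sgDNAJC17 and 2165 to 2421 in ΔRRM. Single markers did not all follow the sum. In the same order, *MYMK* was at 5.80 to 6.45, 5.58 to 6.25 and 0.755 to 1.16 CPM. *CHRNA1* was at 241 to 248, 228 to 248 and 172 to 187, and *FGFR4* at 502 to 540, 303 to 354 and 308 to 356. The part of these markers in the changes of members was not tested.

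Both C-type genes were higher. *HNRNPC* was at 2301, 2248 and 2386 CPM in ΔRRM, above its knockdown and control libraries (log2 fold change 0.97, SE 0.071, adjusted p = 1.23e-18), and *RALY* at 648, 581 and 642 (log2 fold change 0.23, SE 0.065, adjusted p = 0.00169). *HNRNPK* was at 1431, 1423 and 1406, against 1033, 1091 and 1095 in sgCTL (log2 fold change 0.44), and *HNRNPLL*, an hnRNP L relative of lymphocyte splicing, at 97.2, 100.1 and 94.5 against 71.9, 73.3 and 76.4 (0.43). *PTBP2*, *HNRNPF* and *RBM39* were the others (0.42, 0.38 and 0.33). No ΔRRM library of *HNRNPC*, *HNRNPK* or *HNRNPLL* overlapped a control library.

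*TAF15* was lowest relative to control, at 75.7, 83.1 and 74.4 CPM (log2 fold change -0.96, SE 0.064, adjusted p = 2.40e-20), and had also fallen in the Rh30 knockdown. All 3 U-type genes were lower: *HNRNPU* at 329.7, 354 and 315 (log2 fold change -0.78), *HNRNPUL1* at 270.4, 259 and 251 (-0.69) and *HNRNPUL2* at 14.8, 15.7 and 14.9 (-0.71). *HNRNPM*, a splicing regulator linked to mesenchymal splice forms, was at 242, 248 and 230.4 against 428, 414 and 406 in sgCTL (-0.76). Of the A/B-type genes 5 of 7 were lower and *HNRNPA1* (-0.028) and *HNRNPDL* (-0.081) were not called. For all of these lower genes every ΔRRM library was below every control library.

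Against the Rh30 knockdown, ΔRRM cells had 4 members higher and 25 lower, with a median log2 fold change of -0.41 beside 60.0% of all genes called (29.4% higher, 30.5% lower) and 7.79% that reached 2-fold, which no member did. The higher ones were *HNRNPC* (0.60), *HNRNPLL* (0.35), *RALY* (0.30) and *HNRNPK* (0.23), and with library-size scaling 2 of them were called. The largest differences below the knockdown were in *HNRNPA3*, at 216, 230.0 and 189 CPM (log2 fold change -0.84, SE 0.080, adjusted p = 8.80e-16), *HNRNPD* (AUF1, a decay factor for AU-rich mRNA), at 197, 206 and 177 against 349.5, 324 and 284 (log2 fold change -0.71, SE 0.080, adjusted p = 1.10e-12), and *PTBP1*, at 279, 271 and 259 against 475, 426 and 385 (log2 fold change -0.66, SE 0.080, adjusted p = 1.37e-11). This comparison shares its knockdown libraries with that of knockdown and sgCTL. Of the 8 members that had risen in both knockdowns, *HNRNPA0*, *HNRNPH2*, *HNRNPL*, *HNRNPR*, *PCBP1* and *RBM39* were lower in ΔRRM than in the knockdown, *HNRNPC* was higher and *HNRNPF* was not called (0.090). *PCBP1*, at 429, 419.5 and 404, and *HNRNPA0*, at 283, 282 and 286, were also below sgCTL (-0.33 and -0.31). So was *HNRNPH2*, at 109, 114 and 99.8 CPM against 123, 122 and 123 in sgCTL. Its call was lost without ΔRRM replicate A or C or sgCTL replicate B or C.

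**Figure D5:**
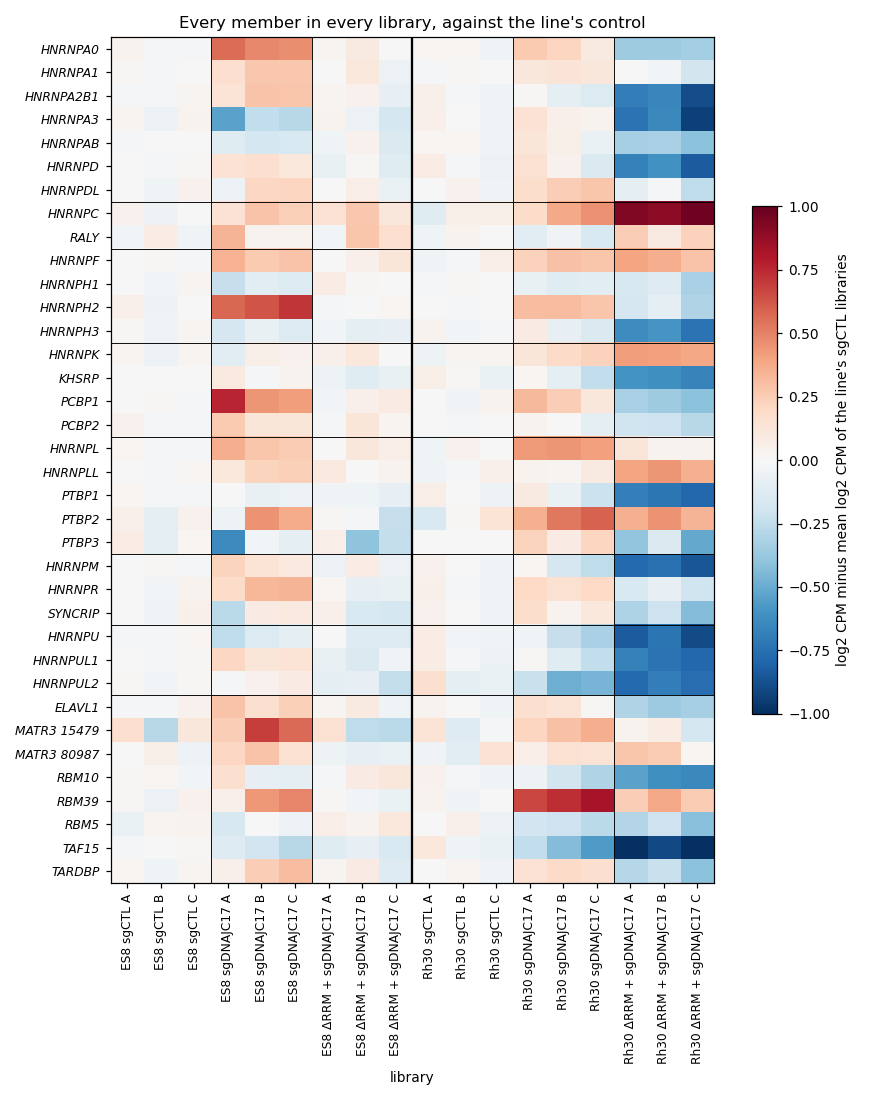
Difference of each member's log2 CPM from the mean of its line's sgCTL libraries, for 36 entries (rows, by role) and 18 libraries (columns, ES8 left and Rh30 right of the thick line); red is above and blue below the control mean, and the colour scale ends at -1 and 1, with values from -1.06 to 0.98. The ES8 ΔRRM columns are close to white, and most rows of the Rh30 ΔRRM columns are blue, with *HNRNPC*, *HNRNPF*, *HNRNPK* and *HNRNPLL* among the red ones.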

How the data were processed

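Poly-A RNA from 18 libraries was sequenced with a kit that does not mark strand. The authors deposited raw read counts per Ensembl gene for each library. The submitters' processing notes name Trimmomatic 0.36, STAR 2.5.2b, featureCounts (Subread 1.5.2) and GRCh38. The study's methods name hg19. Of 18960 genes, 97.1% had a start or an end less than 1 kb from that in GRCh38. For GRCh37 the share was 4.26%, so coordinates are GRCh38. The strand setting of the counting and the treatment of reads shared by genes are not given in the sources used here.

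The groups came from the sample labels, with 3 libraries each. Counts were fitted across all genes with edgeR 4.0.16 (R 4.3.3), with TMM factors, the filterByExpr filter on low counts and quasi-likelihood tests, with 1 fit for each pair of groups and 1 with a line by guide term for the interaction. P-values were adjusted by Benjamini-Hochberg over all genes tested, and a gene was called at an adjusted p under 0.05. Displayed levels are CPM with TMM factors over all 18 libraries, and RPKM divides these by exonic length. Log2 fold changes come from the fits, and a prior count of 2 entered only the log CPM of the GC correction and of the pairing check. Library totals were 35342393 counts or more.

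Values in every library were given for members called in the same direction in both knockdowns, for the 3 with the largest called change in each direction of a comparison, for those called in the interaction and for paralogues called in opposite directions. *HNRNPK*, *HNRNPLL*, *HNRNPM*, *HNRNPUL1*, *PTBP1* and *ELAVL1* were added after their values had been seen. Members and lists were chosen with earlier results of these data known.

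The sgCTL and sgDNAJC17 libraries of Rh30 with the same letter deviated together, with correlations of 0.753, 0.449 and 0.494 for A, B and C over 8998 genes with a mean of at least 10 CPM, and 0.203, 0.0720 and 0.0975 over all 15391 genes. The letters were therefore read as pairs in that comparison, from the data and not from the labels, and its blocked value is given in the results. Alternatives were DESeq2 1.42.0 and its size factors, library-size scaling, no filter or a floor of 10 counts per library, a joint fit of the 18 libraries, the replicate block, a GC and length correction, stricter calls and leaving out each library. The fits were tested on simulated counts with 200 genes changed by 2-fold. Of these, 200 were recovered in each of the ES8 knockdown, Rh30 knockdown and interaction designs. There were 21, 12 and 10 false calls among 16922, 15241 and 18110 genes. Smaller changes were not simulated. No member reached 2-fold in these designs, so the simulation does not show how well changes of the members' size are recovered.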

Additional observations from a re-analysis of the deposited data

Results flagged for a closer look

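The knockdown effect, sgDNAJC17 over sgCTL on the log2 scale, differed between Rh30 and ES8 by the interaction test of edgeR for 5 members, against 9.78% of all genes called. Given as Rh30 minus ES8, the difference was 0.49 for *HNRNPA3* (adjusted p = 0.00335), with effects of -0.37 in ES8 and 0.094 in Rh30. For *RBM39* it was 0.48 (adjusted p = 0.013), with 0.31 and 0.76. For *PTBP3* it was 0.47 (adjusted p = 0.036), with -0.25 and 0.19. For *HNRNPUL2* it was -0.36 (adjusted p = 0.046), with 0.013 and -0.38. For *HNRNPH2* it was -0.28 (adjusted p = 0.0482), with 0.62 and 0.31. Residual *DNAJC17* also differed, with effects of -2.84 in ES8 and -2.19 in Rh30 (difference 0.68, adjusted p = 0.0199), and its part in these differences was not tested.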

How the results depend on the processing

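Each line is 1 culture model, replicates were plated from it, and all counts are per gene. How reads shared by overlapping identifiers, as for *MATR3*, were counted is not given in the sources used here. The 54 values of single members checked here came from those called alike in both knockdowns, the largest called changes and members called in the interaction. Most were thus picked for being called and do not stand for all members. A value was kept if its sign and its side of the threshold were unchanged. DESeq2 size factors and a floor of 10 counts in every library kept all 54, and DESeq2 kept 53. No filter, the replicate block and the GC and length correction kept 51 each, all 18 libraries in 1 fit 50 and library-size scaling 45. Leaving out 1 library kept 284 of 354, with 69 no longer called. *HNRNPU* in ES8 turned from -0.19 to 0.034 with the GC and length correction. *HNRNPUL2* in ES8, not called at 0.013, turned to -0.033 with library-size scaling and to -0.010 without ES8 knockdown replicate C (range -0.010 to 0.038 when 1 library was left out).

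The share of all genes called was taken for the main fits only, so member counts in the other fits have no background beside them. In the ES8 knockdown the main counts were 12 up and 5 down. The number up was 23 with the GC and length correction, 6 at an adjusted p under 0.01 and 0 with a 2-fold limit. The number down was 2 with DESeq2, 1 with all 18 libraries in 1 fit, 2 with the replicate block, 3 with the GC and length correction, 1 at 0.01 and 0 with the 2-fold limit. Leaving out 1 library gave 6 to 20 up and 1 to 8 down. In the Rh30 knockdown, with 13 up and 3 down, library-size scaling gave 8 and 6, the replicate block 10 down, an adjusted p under 0.01 8 up and the 2-fold limit 0 and 0, and leaving out 1 library 7 to 14 up and 2 to 7 down. Of members up in both knockdowns, 8 in the main counts, library-size scaling left 4, an adjusted p under 0.01 4 and the 2-fold limit 0, with 5 to 11 when 1 library was left out. Of members down in both, 1 in the main counts, library-size scaling gave 3, no filter 2, all 18 libraries in 1 fit 0, the 2-fold limit 0 and an adjusted p under 0.01 0, with 0 to 2 when 1 library was left out.

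For ΔRRM against the ES8 knockdown, 0 higher became 1 with DESeq2, 1 with no filter, 2 with all 18 libraries and 3 with the GC and length correction. The 5 lower became 16 with all 18 libraries, 14 with the GC and length correction, 3 at 0.01 and 0 with the 2-fold limit, and 3 to 10 when 1 library was left out. In Rh30 the 2-fold limit left 0 and 0 for ΔRRM against sgCTL and 0 and 0 against the knockdown, where library-size scaling left 2 higher. Between the sgCTL groups library-size scaling gave 6 higher, and the 2-fold limit 3 higher and 3 lower. In the interaction, 3 higher became 5 with DESeq2, 5 with the replicate block, 6 with the GC and length correction, 1 at 0.01 and 0 with the 2-fold limit, and 1 to 5 when 1 library was left out. The 2 lower became 4 with DESeq2, 4 with library-size scaling, 4 with all 18 libraries, 4 with the replicate block, 5 with the GC and length correction, 0 at 0.01 and 0 with the 2-fold limit, and 0 to 3 when 1 library was left out. No member reached 2-fold outside the comparison of the sgCTL groups, and a stricter limit lowers a count by construction. For the other changes the cause was not tested.

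Outside the Rh30 knockdown the letters did not pair the libraries. In ES8 the same-letter correlations of sgCTL and sgDNAJC17 over 9560 genes with a mean of at least 10 CPM were -0.20, -0.55 and 0.48, and only letter C correlated best with itself. Beyond the counts given, the block changed 3 of 54 values of single members (1 newly called, 2 no longer called).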
